A study of Mus musculus with 5 samples.

Results

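The genes described here make, degrade and read out cyclic AMP (cAMP) in mouse blood stem and progenitor cells. They are 10 genes chosen by symbol for their function: the adenylyl cyclase genes Adcy3, Adcy6, Adcy7 and Adcy9, the phosphodiesterase 4 genes Pde4a, Pde4b and Pde4d, the protein kinase A subunit gene Prkar2b, and the transcription factor genes Creb1 and Crem. Each matched 1 row of a table of 39056 genes, and all 10 had enough counts to be tested, as had 13467 genes in all. The 10 were chosen with earlier results of these data known.

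RNA came from LSK cells, the lineage-negative, Sca-1-positive, Kit-positive fraction of bone marrow that holds stem cells and multipotent progenitors, sorted at about 12000 cells per library. The mice were C57BL/6 at postnatal day 15, and the groups were wild type (WT, 2 libraries) and Gabbr1 null (3 libraries). The labels give neither the deleted part of Gabbr1 nor whether each library came from its own mouse. The spread that p-values are measured against may therefore be technical in part. The protocol text names 4 mice per genotype and the design text 2 and 3, which is the number of libraries.

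The product of Gabbr1 is a GABA-B receptor subunit, and this receptor signals through inhibitory G proteins, which lower the activity of some but not all adenylyl cyclases. Cyclases make cAMP from ATP, phosphodiesterases hydrolyse it, and the level between the 2 reactions sets how much protein kinase A is released from its regulatory subunits. The freed kinase phosphorylates CREB, which then activates genes that carry cAMP response elements, among them immediate early genes. In marrow, cAMP signalling acts downstream of prostaglandin and adrenergic receptors, and transcript levels show neither enzyme activity nor cAMP itself.

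Total counts were between 6972753 and 8150774 per library, so 1 CPM (counts scaled to library size and by the trimmed mean of M-values, TMM) stood for 7.02 to 8.13 counts. Differences are log2 fold changes of null over WT with their standard error (SE), and p-values come from edgeR, adjusted over all tested genes unless called unadjusted. Gabbr1 had 402 and 403 counts in WT and 289, 264 and 268 in null (log2 fold change -0.59 ± 0.13; adjusted p = 0.0361), so most of its counts remained in null. As the deleted part is not given, this is only a partial check of the labels. The gate gene Kit lay between 864 and 1049 CPM in all libraries, and Ly6a, which encodes Sca-1, between 12.9 and 30.3 CPM. Null library 1 had 22532 counts of Xist and 0 of 4 Y-linked genes, the reverse of the other 4 libraries. It therefore did not share its mice with null libraries 2 and 3. The labels give no sex, and the fit held no term for it. Some markers of other cell types were higher in null. Summed B-lineage markers were 233 and 113 CPM in the WT libraries, and null had 1189, 691 and 1135 CPM, and 13 of 16 tested markers were higher. Endothelial and stromal markers summed to 272 and 312 CPM in the WT libraries, and null had 569, 594 and 445 CPM, with 8 of 14 tested markers higher and Lepr at 0 counts in both WT libraries. Mature neutrophil markers summed to 152 and 112 CPM in the WT libraries, and null had 2328, 617 and 140 CPM, with 0 of 10 passing and Mmp8 at 0 in WT. Mature erythroid markers summed to 5.54 and 5.13 CPM in the WT libraries, and null had 35.0, 7.79 and 3.58 CPM, with Hba-a1 and Hba-a2 at 0 throughout. In bulk RNA of this kind, fewer cells of a type and less RNA per cell cannot be told apart.

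None of the 10 genes differed between WT and null past an adjusted p of 0.05. 0 were higher, where 2.15% of all tested genes were, and 0 were lower, where 0.334% were. DESeq2 and limma-voom also called 0. At an unadjusted p under 0.05, 1 was higher (Pde4d) and 2 were lower (Adcy6 and Adcy9), beside 7.99% and 4.84% of all tested genes. The library values of the 2 groups nevertheless did not overlap for 7 of the 10, beside 29.2% of tested genes. Adcy3, Adcy6 and Adcy9 were lower in every null library than in either WT library (3 of 10, beside 13.7% of tested genes). Pde4a, Pde4b, Pde4d and Creb1 were higher in every null library (4 of 10, beside 15.5%). Their fitted log2 fold changes lay between -0.35 (Adcy9) and 0.38 (Pde4d). All these counts are a description, since the 10 genes were chosen with results of these data known. Each family also held a rarely counted gene that separated in the opposite direction, with Adcy4 higher and Pde4c lower in every null library.

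**Figure D1:**
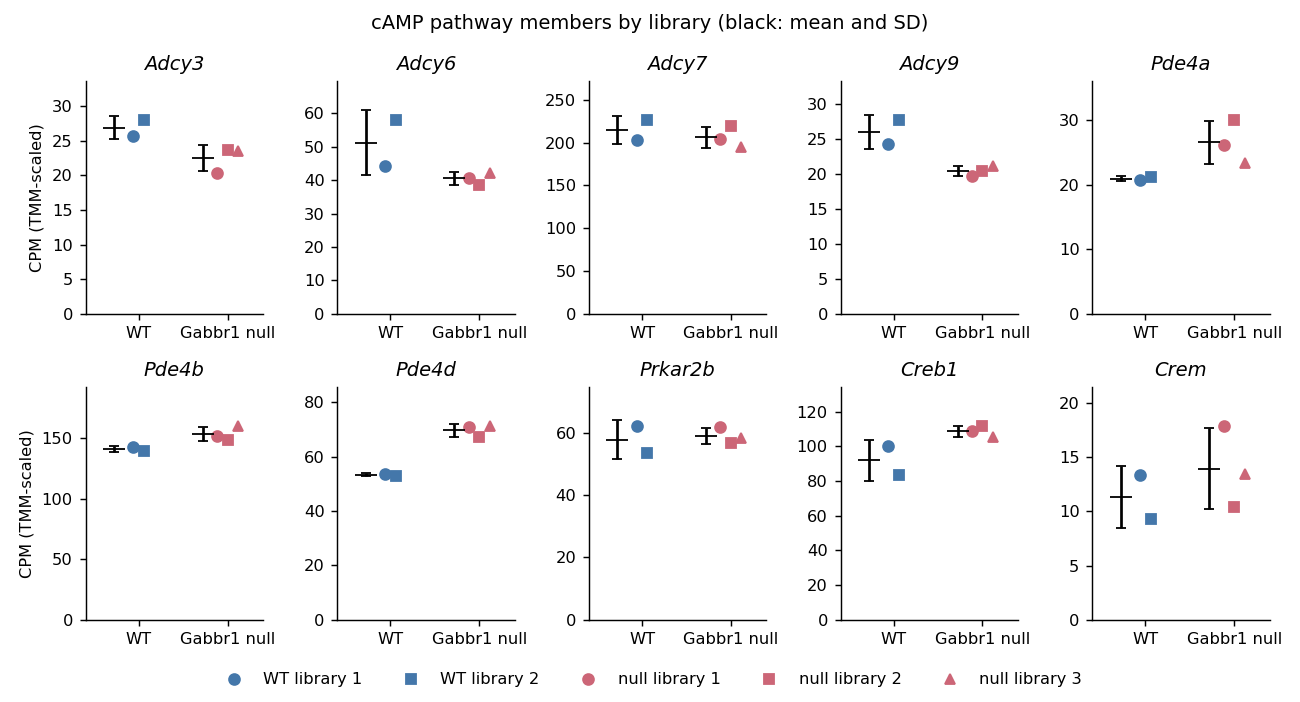
CPM of the 10 genes in each library, with 1 panel per gene, a y axis from 0, and a black bar for the mean and SD of each genotype (WT n = 2, null n = 3). The 3 null libraries lie below both WT libraries for Adcy3, Adcy6 and Adcy9 and above both for Pde4a, Pde4b, Pde4d and Creb1, while Adcy7, Prkar2b and Crem overlap.

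The 4 cyclase genes encode membrane-bound enzymes that differ in their regulation. Adcy7 (chromosome 8, 88272403 to 88329962, mm10), a form common in blood cells, was the most abundant of them. Its levels were 203 and 227 CPM in the WT libraries, and null had 204, 220 and 195 CPM. WT and null values interleaved, and the log2 fold change was -0.06 ± 0.11 (SE, 95% interval -0.30 to 0.18, adjusted p = 0.892). The sign rested on WT library 2, without which the value was 0.02.

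Adcy6 (chromosome 15, 98589973 to 98610076), a cyclase inhibited by calcium and by inhibitory G proteins, was at 44.3 and 58.1 CPM in the WT libraries, and null had 40.8, 38.5 and 42.3 CPM. All null libraries were lower, but WT library 1 lay nearer to them than to WT library 2. The log2 fold change was -0.33 ± 0.14 (SE, 95% interval -0.64 to -0.03, adjusted p = 0.337). Of the Adcy6 exons, 8.92% are overlapped by the antisense gene Gm29331. The value was -0.53 without WT library 1 and -0.13 without WT library 2, so that its size rested on which WT library was kept.

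Adcy9 (chromosome 16, 4287529 to 4420498), a cyclase that responds little to forskolin, was at 24.2 and 27.8 CPM in the WT libraries, and null had 19.7, 20.5 and 21.1 CPM. The null libraries were close together and all below WT, with a log2 fold change of -0.35 ± 0.16 (SE, 95% interval -0.69 to -0.01, adjusted p = 0.375). Adcy3 (chromosome 12, 4133103 to 4213525), known best as the olfactory cyclase, was at 25.7 and 28.1 CPM in the WT libraries, and null had 20.4, 23.6 and 23.6 CPM. Its groups did not overlap either, and the log2 fold change was -0.25 ± 0.16 (adjusted p = 0.556). Of the Adcy3 exons, 22.1% are overlapped by the oppositely transcribed Cenpo, so reads of both genes cannot be told apart there where counting ignored strand, which the sources used here do not state. Cenpo was at 37.3 and 43.6 CPM in the WT libraries, and null had 42.8, 27.98 and 41.2 CPM. These values are for the whole gene and not for the shared stretch, and its part in the Adcy3 values was not tested.

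The phosphodiesterase 4 genes encode cAMP-specific enzymes that are the targets of rolipram. Pde4d (chromosome 13, 108449948 to 109953461) showed the lowest p of all 10 genes. It was at 53.8 and 53.0 CPM in the WT libraries, and null had 70.8, 67.0 and 71.3 CPM. The gap between the groups was several times the spread within them, and 95% counting intervals did not meet, the highest in WT ending at 59.1 CPM and the lowest in null starting at 61.3 CPM. The log2 fold change was 0.38 ± 0.11 (SE, 95% interval 0.15 to 0.62), with an unadjusted p of 0.00424 and an adjusted p of 0.109. The difference therefore did not pass, although its size stayed between 0.37 and 0.42 whichever library was left out.

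Pde4b (chromosome 4, 102087543 to 102607259), the form most linked to inflammatory cells, was the most abundant of the family. It was at 142 and 139 CPM in the WT libraries, and null had 152, 149 and 160 CPM. The groups did not overlap, but the log2 fold change was small at 0.12 ± 0.10 (SE, 95% interval -0.10 to 0.35, adjusted p = 0.687). Pde4a (chromosome 9, 21165714 to 21213248) was at 20.7 and 21.2 CPM in the WT libraries, and null had 26.2, 30.1 and 23.4 CPM. The WT libraries were nearly equal and the null libraries spread above them, with a log2 fold change of 0.34 ± 0.17 (SE, 95% interval -0.02 to 0.70, adjusted p = 0.417).

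Downstream of cAMP, Prkar2b (chromosome 12, 31958476 to 32061296) encodes a regulatory subunit that holds protein kinase A inactive until cAMP binds. It was at 62.2 and 53.4 CPM in the WT libraries, and null had 62.0, 56.7 and 58.2 CPM. The null values all lay between the WT values, and the log2 fold change was 0.03 ± 0.12 (SE, 95% interval -0.23 to 0.29, adjusted p = 0.959).

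Creb1 (chromosome 1, 64532645 to 64604548) encodes CREB itself. It was at 100.4 and 83.6 CPM in the WT libraries, and null had 109, 112 and 105 CPM. The groups did not overlap, but WT library 1 lay closer to null library 3 than to WT library 2. The log2 fold change was 0.24 ± 0.11 (SE, 95% interval -0.01 to 0.49, adjusted p = 0.407), and it was 0.37 without WT library 1 and 0.11 without WT library 2.

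Crem (chromosome 18, 3266048 to 3337748) encodes both activators and the cAMP-induced repressor ICER, and gene-level counts do not separate these products. The oppositely transcribed Gm6225, with 1 to 17 counts per library, overlaps 8.01% of its exons. Crem was the least counted of the 10, with 108 and 65 counts in WT and 134, 79 and 109 in null, or 13.3, 9.26, 17.9, 10.4 and 13.4 CPM. Libraries differed within each genotype by more than the genotypes did, and null library 1 was highest, with a 95% counting interval of 14.96 to 21.2 CPM against 8.25 to 12.99 CPM in null library 2. The log2 fold change was 0.30 ± 0.26 (SE, 95% interval -0.26 to 0.86, adjusted p = 0.708). It was 0.08 without null library 1, 0.58 without WT library 1 and 0.06 without WT library 2.

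Crem varied most over the libraries, with a range of 0.93 in log2 CPM. The tested genes whose centred log2 CPM lay nearest to it over the 5 libraries were Gm42743, Hist3h2ba and Hist1h1e, at root mean square differences of 0.048, 0.083 and 0.084. Hist1h1e, for example, was at 893 and 597 CPM in the WT libraries, and null had 1328, 771 and 961 CPM, and so shared with Crem the high null library 1 and the low WT library 2.

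Levels of different genes can be compared only per exon length, and the order here is by mean CPM per kb of annotated exon over all 5 libraries. Adcy7 stood first at 31.1 CPM per kb (range 29.0 to 33.7), above all others in every library. Prkar2b (16.0) and Pde4b (14.0) followed, and their ranges overlapped. Below a gap came Creb1 (7.42), Adcy6 (6.61), Pde4d (5.26), Adcy9 (4.36), Adcy3 (3.88), Pde4a (3.18) and Crem (2.18), each overlapping its neighbour. The exon lengths join all annotated isoforms, from 3.65 kb for Prkar2b to 13.7 kb for Creb1, so genes with many unused exons are understated.

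**Figure D2:**
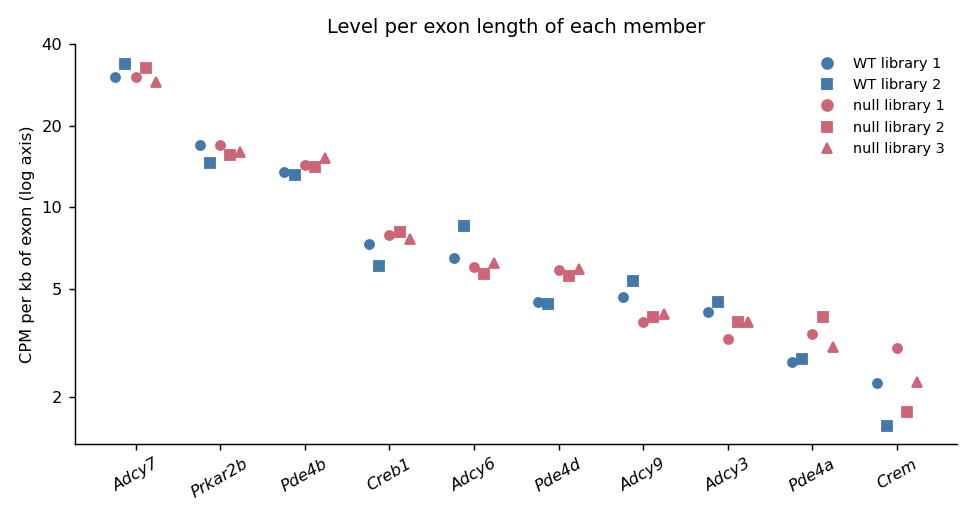
CPM per kb of exon (log axis) of the 10 genes in each of the 5 libraries, ordered by their mean. Adcy7 lies between 29.0 and 33.7 CPM per kb, Prkar2b and Pde4b share the next place, and the other 7 form a continuous series down to Crem.

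Within each family the same gene led in all 5 libraries. Among all 10 cyclase genes, Adcy7 accounted for 65.0% ± 0.99 of the summed CPM per kb in WT (SD, n = 2) and 68.5% ± 1.8 in null (SD, n = 3), and Adcy6, Adcy9 and Adcy3 for most of the rest. Adcy8 had no count in any library. Among the 4 phosphodiesterase 4 genes, Pde4b made up 63.2% ± 0.62 in WT and 60.1% ± 1.5 in null, and Pde4d 21.1% ± 0.086 and 24.0% ± 0.68 (SD, n = 2 and 3). Prkar2b was a minor form beside Prkar1a, with 13.1% ± 1.6 of the regulatory subunit signal in WT and 13.1% ± 0.78 in null (SD, n = 2 and 3), against 83.0% for Prkar1a in both. Creb1 gave 23.7% and 24.5% of the signal of Creb1, Crem and their relative Atf1, in WT and null.

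The ratio of the phosphodiesterase to the cyclase genes was higher in every null library. The summed CPM per kb of Pde4a, Pde4b and Pde4d over that of the 4 cyclase genes was 0.455 and 0.391 in WT and 0.546, 0.513 and 0.561 in null. The ratio is a description with no test, since the genes were chosen with results of these data known.

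**Figure D3:**
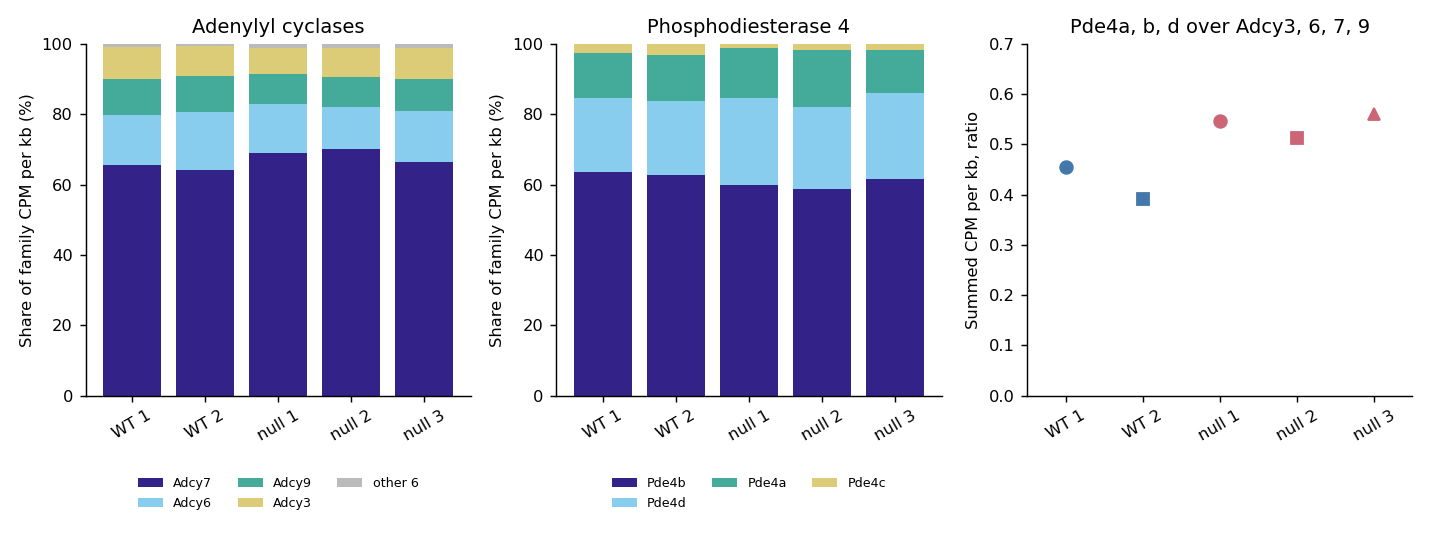
Left and middle, share (%) of summed CPM per kb held by each gene of the cyclase and phosphodiesterase 4 families in each library; right, ratio of the 3 phosphodiesterase genes to the 4 cyclase genes, with circles, squares and a triangle for the libraries. Adcy7 and Pde4b lead their families in every library, and the ratio is 0.391 to 0.455 in WT and 0.513 to 0.561 in null.

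Promoters are shown because CREB acts through the cAMP response element TGACGTCA or its 5-base core TGACG, searched on both strands (CGTCA on the other) in the 250 bases before each RefSeq start. 8 of the 10 genes matched the RefSeq promoter table (GRCm38.p6), with 17 starts. The full element was in 0 of these, beside 1.55% of all 32851 promoters, and the core, which the full element contains, was in 4 of 17, beside 17.8%. Counted by gene, with any start, the core was in 4 of 8, beside 19.8% of all genes. The 8 genes have 17 starts between them, and a gene with more starts has more chances of a match. The 4 matches, 1 each for Adcy7, Adcy9, Pde4a and Pde4b, all lay within the last 60 bases before the start, printed here with the core in capitals. A match is a run of letters and not a shown binding site.

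Adcy7, chr8:88282932-88282991, plus strand: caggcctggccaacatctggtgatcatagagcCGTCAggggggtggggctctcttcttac

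Adcy9, chr16:4420499-4420558, minus strand: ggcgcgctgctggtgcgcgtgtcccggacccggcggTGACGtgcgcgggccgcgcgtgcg

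Pde4a, chr9:21184041-21184100, plus strand: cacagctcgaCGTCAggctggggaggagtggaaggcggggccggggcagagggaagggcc

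Pde4b, chr4:102421495-102421554, plus strand: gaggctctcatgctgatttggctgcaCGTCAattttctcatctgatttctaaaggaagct

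For Adcy7, Pde4a and Pde4b the match belonged to 1 of 3, 1 of 3 and 1 of 4 listed starts, and counts per gene do not say which start was used. Of the 4 genes, Adcy9 was lower in every null library, Pde4a and Pde4b were higher, and Adcy7 overlapped.

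Elsewhere in cAMP handling, Pde2a, Pde3b, Pkig and Akap12 rose in null. Of 50 further listed genes (cyclases, phosphodiesterases, protein kinase A subunits and inhibitors, exchange factors, anchoring proteins, CREB relatives and coactivators), 35 were tested, and these 4 passed, all higher in null, in edgeR, DESeq2 and limma-voom alike (beside 2.15% of all tested genes in edgeR). None was lower in these fits, beside 0.334%. Without adjustment, 6 had p under 0.05 and higher values in null (beside 7.99%), and 3 (Abcc4, Crtc1 and Crtc2) lower values (beside 4.84%). Over the whole pathway, the 10 genes included, the median log2 fold change of 45 tested genes was 0.05, beside -0.004 for all tested genes.

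Phosphodiesterases held 2 of the 4. Pde2a, which encodes a phosphodiesterase stimulated by cGMP, had 15 and 14 counts in WT and 110, 70 and 87 in null, or 1.85, 1.99, 14.7, 9.24 and 10.7 CPM. Every null library was several-fold above WT, and Pde2a rose by 2.58 ± 0.33 on the log2 scale (adjusted p = 0.0012), and without WT library 1 or 2 the value was 2.51 or 2.63 while the call was lost (adjusted p = 0.0502 and 0.0763). Of the Pde2a exons, 64.3% are shared with the same-strand gene Gm45837, which had 0 to 2 counts per library. The shared part is 3955 bases of the 4.139 kb of Gm45837 exon, so these low counts do not show how reads there were assigned. The Pde2a counts may therefore come mainly from its unshared exons.

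Pde3b, which encodes an enzyme that insulin activates to lower cAMP, was at 38.2 and 36.5 CPM in the WT libraries, and null had 65.2, 79.4 and 64.9 CPM. It rose by 0.90 ± 0.13 (adjusted p = 0.00282), and without WT library 2 the value was 0.87 and the call was lost (adjusted p = 0.0976). Over the list, which includes the members Pde4a, Pde4b and Pde4d, 12 of 16 phosphodiesterase genes were tested. Of these 12, 9 had positive values (beside 6629 of all 13467 tested genes), and the median log2 fold change was 0.34 (beside -0.004). Groups did not overlap for 8 (beside 29.2% of all tested genes), 7 of them higher in null (beside 15.5%). Pde4a, Pde4b and Pde4d are among the 7 and were already counted above. Pde8a, a high-affinity form, was next in p (log2 fold change 0.79 ± 0.21; adjusted p = 0.0738). Pde4c, the rarest phosphodiesterase 4 gene with 12 to 25 counts per library, had a log2 fold change of -0.68 ± 0.41 (adjusted p = 0.541). Of the 5 tested cyclase genes, 0 passed and the median was -0.25. Negative values were seen for 4 (beside 6838 of all 13467 tested genes). These are the members Adcy3, Adcy6, Adcy7 and Adcy9, chosen with results of these data known. The exception in sign, Adcy4, had 7 to 17 counts per library.

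Pkig, which encodes a peptide inhibitor of protein kinase A, was at 27.4 and 27.6 CPM in the WT libraries, and null had 51.2, 45.0 and 55.5 CPM. It rose by 0.88 ± 0.14 (adjusted p = 0.005), and without WT library 1 or 2 the value was 0.86 or 0.88 while the call was lost (adjusted p = 0.0703 and 0.13). Of 8 tested kinase subunit and inhibitor genes no other passed, and next came the related inhibitor Pkib (log2 fold change 0.60 ± 0.30; adjusted p = 0.442) and Pkia (adjusted p = 0.798). The median of the 8 was 0.02.

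Akap12, a scaffold that tethers protein kinase A near the membrane, differed most. It was at 17.1 and 5.98 CPM in the WT libraries, and null had 116, 60.7 and 98.5 CPM, a rise of 2.96 ± 0.35 on the log2 scale (adjusted p = 0.000889) that was lost without WT library 2 (2.42, adjusted p = 0.0663) and was 3.93 without WT library 1. Of 9 tested anchoring genes no other passed, and Akap9 and Akap1, next in p, had adjusted p of 0.515 and 0.747. Within null, Akap12, Pkig, Pde2a and the summed B-lineage markers given above were all lowest in library 2. Within WT, Akap12 and those markers were higher in library 1, while Pkig and Pde2a were nearly equal in both. Pde3b and the endothelial and stromal markers were highest in null library 2. The part of other cell types in these rises was not tested, and likewise for Pde4d, whose level was also lowest in null library 2.

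Among other effectors, the cAMP efflux pump gene Abcc4 was at 87.1 and 90.0 CPM in the WT libraries, and null had 64.6, 80.5 and 69.7 CPM (log2 fold change -0.31 ± 0.12; adjusted p = 0.28), below WT in every null library. The exchange factor genes Rapgef3 and Rapgef4, which encode the EPAC proteins, had adjusted p of 0.525 and 0.809. In the CREB group 0 of 8 tested genes passed. The CREB coactivator genes Crtc1 and Crtc2 had log2 fold changes of -0.42 ± 0.15 and -0.32 ± 0.14 (adjusted p = 0.221 and 0.374), and Crtc1 differed within WT, at 92.8 and 132 CPM.

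**Figure D4:**
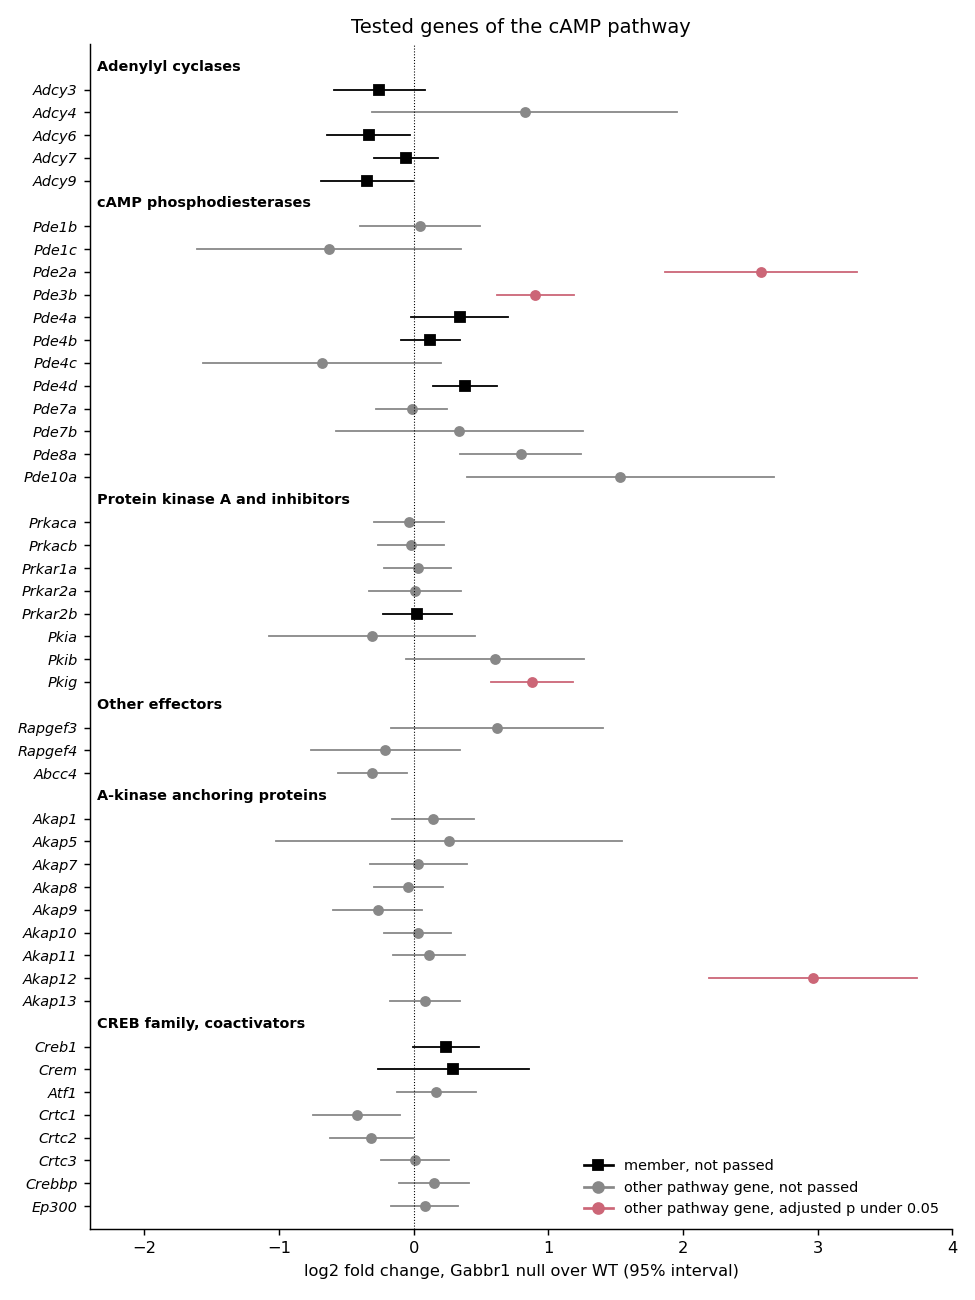
Log2 fold change (null over WT) with its 95% interval for the 45 tested pathway genes, grouped by role; squares are the 10 members and red marks an adjusted p under 0.05. Pde2a, Pde3b, Pkig and Akap12 are the only genes in red, the cyclase members lie left of 0 and the phosphodiesterase 4 members right of it.

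Some genes described as CREB targets fell in null. Of 18 listed genes 15 were tested; 5 fell (Fos, Egr1, Nr4a1, Dusp1 and Junb; beside 0.334% of all tested genes) and 0 rose (beside 2.15%), with a median log2 fold change of -0.59. At an unadjusted p under 0.05, 10 were lower (beside 4.84%) and 1 (Pde4d) higher (beside 7.99%). The list is not independent evidence, since the fall of immediate early genes in these libraries was known when it was made. Egr1 and Junb, a zinc finger and an AP-1 gene, had log2 fold changes of -1.19 and -0.91 (adjusted p = 0.0184 and 0.035). The 3 genes of the list already described, Crem, Pde4b and Pde4d, all had positive log2 fold changes (0.30, 0.12 and 0.38). Of the other 12 tested genes of the list, 11 were negative (beside 6838 of all 13467 tested genes).

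Fos, an AP-1 subunit gene, was at 96.4 and 239 CPM in the WT libraries, and null had 63.6, 29.6 and 39.0 CPM (log2 fold change -1.93 ± 0.33; adjusted p = 0.00807). Dusp1, a phosphatase gene that limits MAP kinases, was at 96.7 and 175 CPM in the WT libraries, and null had 58.4, 42.1 and 47.2 CPM (-1.46 ± 0.21; adjusted p = 0.00246). The orphan receptor gene Nr4a1 was at 20.6 and 65.7 CPM in the WT libraries, and null had 10.5, 6.07 and 10.6 CPM (-2.24 ± 0.39; adjusted p = 0.00838). All null libraries were below WT, but WT library 2 stood apart as the highest, and without it 0 of the 15 passed (Fos -1.13, Dusp1 -0.98 and Nr4a1 -1.18). The median over the 15 tested genes, relative to the WT mean in log2 CPM, was -0.39 and 0.39 in WT and -0.53, -0.80 and -0.68 in null.

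**Figure D5:**
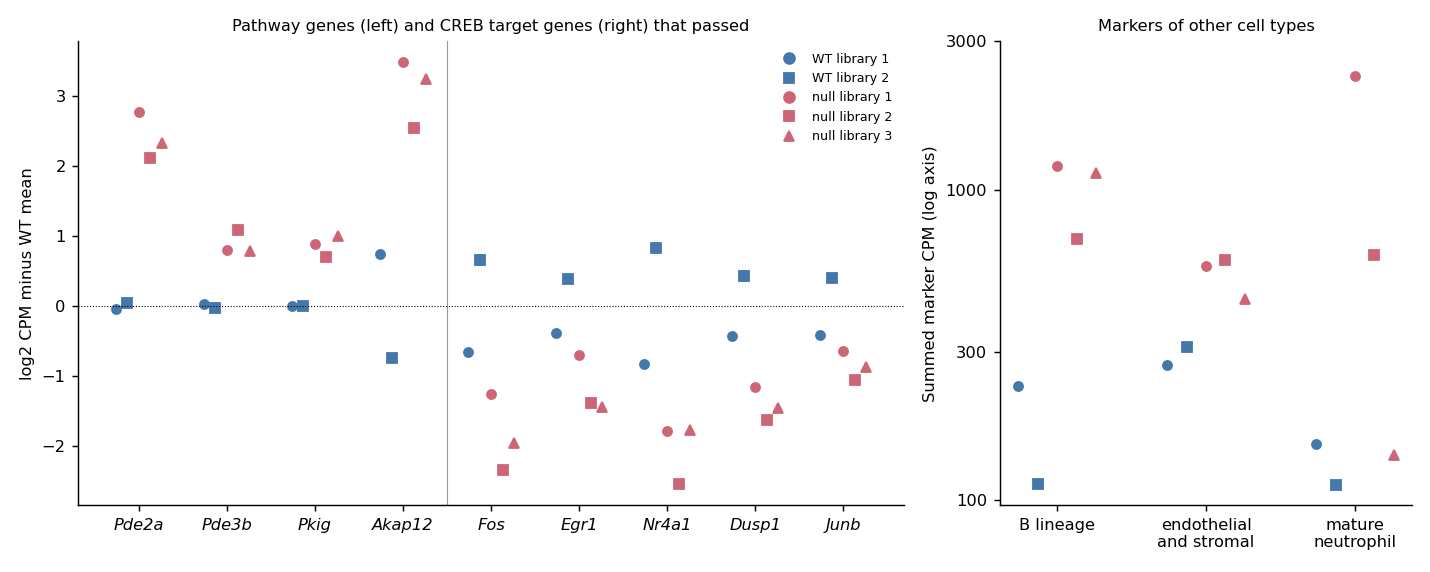
Left, log2 CPM minus the WT mean in each library for the pathway genes that rose and the CREB target genes that fell; right, summed CPM (log axis) of marker lists of other cell types. The WT libraries nearly coincide for Pde2a, Pde3b and Pkig and lie apart for Akap12 and the target genes, and B-lineage markers are 113 to 233 CPM in WT and 691 to 1189 CPM in null.

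Promoters of target genes are shown for comparison with those of the 10 genes. The core was in 58.3% of 24 RefSeq starts of listed target genes, 23.5% of the 17 starts above and 17.8% of all promoters, and the full element was in 1, that of Dusp1. Pde4b and Pde4d are in both lists, so their starts are counted among both the 24 and the 17. Such genes are described as targets partly for these elements, so the count restates how they were chosen. The 150 bases before the start of 4 that fell are printed with core or full element in capitals. Egr1, which also fell, is not printed.

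Fos, chr12:85473740-85473889, plus strand: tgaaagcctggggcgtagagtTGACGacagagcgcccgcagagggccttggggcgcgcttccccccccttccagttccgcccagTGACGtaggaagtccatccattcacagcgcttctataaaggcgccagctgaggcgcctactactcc

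Dusp1, chr17:26508473-26508622, minus strand: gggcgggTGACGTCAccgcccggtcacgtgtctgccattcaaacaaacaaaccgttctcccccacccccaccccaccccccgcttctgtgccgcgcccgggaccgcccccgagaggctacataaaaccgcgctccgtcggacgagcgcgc

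Nr4a1, chr15:101266696-101266845, plus strand: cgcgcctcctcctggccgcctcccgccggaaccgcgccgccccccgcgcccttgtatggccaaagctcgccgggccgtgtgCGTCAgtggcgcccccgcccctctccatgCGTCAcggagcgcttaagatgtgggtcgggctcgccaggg

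Junb, chr8:84978749-84978898, minus strand: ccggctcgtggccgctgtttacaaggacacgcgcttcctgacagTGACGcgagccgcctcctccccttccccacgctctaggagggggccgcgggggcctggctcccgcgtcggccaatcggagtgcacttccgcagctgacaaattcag

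Fos and Nr4a1 thus show 2 cores each in this window, and Dusp1 and Junb 1 match each. Over the 250 bases scanned, Nr4a1 had 4 matches and Dusp1 had 2. They were printed because they fell, and 13 of the 14 target genes in the promoter table held the core, so it does not set these 4 apart.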

How the data were processed

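The deposited values are raw counts, whole numbers for each gene and library. STAR, featureCounts and mm10 are listed in the submitters' processing notes. Versions, annotation release and strand setting are not given there. RNA input was 3.6 to 5 ng into a ribosomal depletion kit, read as pairs of 50 bases, per the labels' protocols, although the molecule label says polyA RNA. Symbols and exon lengths came from GENCODE M21, which held 99.5% of identifiers with versions ignored.

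Genes kept by filterByExpr were fitted together by the quasi-likelihood test of edgeR 4.0.16 (R 4.3.3) with TMM factors and genotype as the only term; p-values were Benjamini-Hochberg adjusted over all 13467 genes. Standard errors came from the F statistic, and the code was tested on simulated data. There, 29.8% of 1.5-fold, 70.4% of 2-fold and 90.3% of 4-fold changes passed. The fitted folds of the 10 genes, from 0.786 (Adcy9) to 1.31 (Pde4d), were smaller changes than these, so real differences of that size could be missed. Counting intervals are exact Poisson and cover counting error only. No pair of libraries within a group agreed within sampling noise (chi-square per degree of freedom 8.06 to 12.8). Alternatives were RLE factors, 2 other filters, DESeq2 1.42.0, limma-voom (limma 3.58.1), omission of each library, and a threshold of 0.1. The text names all 10 members, the other list genes that passed or had the 3 lowest p of their list, and the 3 genes most like the most variable member; Adcy4, Pde4c, Adcy8, Prkar1a, Atf1 and overlapping genes were named after their values were seen. Members and lists were chosen with earlier results of these data known.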

Additional observations from a re-analysis of the deposited data

How the results depend on the processing

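None of the 10 genes passed under any of 10 other fits each (RLE factors, no filter, a minimum of 1 CPM in each library, DESeq2, limma-voom and each library left out), nor at an adjusted p under 0.1, and 97 of these 100 values kept their sign. The exceptions were near 0: leaving out each library gave Adcy7 a log2 fold change from -0.15 to 0.0212, positive without WT library 2, and Prkar2b from -0.077 to 0.131, negative without WT library 2 or null library 1. Counts over the pathway moved more. Leaving out each library gave 0 to 5 pathway genes higher in null, with Pde3b and Akap12 kept without WT library 1 and none without WT library 2. With no filter, 1 pathway gene (Crtc1) was lower. For named genes that passed the main edgeR fit, adjusted p was far smaller with no filter (Akap12 2.34e-72 against 0.000889, Fos 3.23e-51 against 0.00807). Calls without a filter are therefore not comparable with those of the main fit. Of the CREB target genes, 10 were lower with no filter and 3 in limma-voom (Fos, Dusp1 and Egr1), and leaving out each library gave 0 to 7. DESeq2 called 5, of which Fos and Egr1 were not part. Shares over all genes are given only for the main fit, so the counts under other fits have no background beside them. Fits with a single WT library take its variation from the null group. The cause of these shifts was not tested. No paired analysis was possible because the labels give no replicate numbers. Counts of 65 to 228 per library limit Adcy3, Adcy9, Pde4a and Crem.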
